A study of Homo sapiens with 9 samples.

Results

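The 5 FGF ligand genes FGF1, FGF2, FGF5, FGF7 and FGF18 and the 4 FGF receptor genes FGFR1, FGFR2, FGFR3 and FGFR4 were followed through an IGF2BP1 knockdown and an SRF knockdown in ES-2 cells. The members were chosen by gene symbol, and they make up 9 of the 58174 genes in the deposited tables. FGF5 was selected on its measured direction, since its FPKM values were lower upon IGF2BP1 depletion and higher upon SRF depletion. Its values are therefore given as a description with no test, and all counts of called genes are over the other 8 members. ES-2 cells are a long-established human line grown from an ovarian tumour. The cells were transfected for 72 h with control siRNAs (siC), with a pool of siRNAs against IGF2BP1 (siIGF2BP1) or with a pool against SRF (siSRF), with 3 libraries per group. All groups thus had a transfection in common, each gene was targeted by a single pool, and the labels do not say whether the 3 libraries came from separate cultures, so that p-values measure only the spread between these libraries.

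Fibroblast growth factors are secreted proteins that bind receptor tyrosine kinases at the cell surface together with heparan sulphate chains. Bound receptors become phosphorylated and act through the adaptor FRS2 on the RAS-ERK cascade, which in turn induces inhibitors of its own signalling such as the Sprouty proteins and dual-specificity phosphatases. IGF2BP1 is an mRNA-binding protein known to protect target mRNAs from degradation, including degradation directed by microRNAs of the let-7 family, and SRF is a transcription factor that binds the CArG box in promoters.

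RNA was measured as FPKM, fragments per kilobase of gene length scaled to the size of the library. Levels of different genes can be compared in this unit only as far as the gene length used matches the transcript. The libraries held 6421764 to 9416175 reads assigned to genes. IGF2BP1 itself had a mean of 12.8 FPKM ± 0.689 in control cells, 4.11 FPKM ± 0.0846 upon its own depletion and 14.2 FPKM ± 0.455 upon SRF depletion (SD, n = 3 each). Corresponding levels of SRF were 14.5 FPKM ± 1.28, 6.01 FPKM ± 0.714 and 1.47 FPKM ± 0.145, so SRF was also depleted in the siIGF2BP1 libraries (log2 fold change -1.26, limma adjusted p = 0.00111). The mesenchymal marker VIM averaged 853 to 1055 FPKM per group, and the epithelial keratin KRT7 101 to 152 FPKM, while the epithelial markers EPCAM and CDH1 were at or near 0. Summed over 4 mesenchymal markers, of which VIM makes up nearly all, siC libraries had 1092 to 1110 FPKM, siIGF2BP1 libraries 894 to 975 and siSRF libraries 881 to 931. The mesenchymal cadherin CDH2 went the other way, with means of 25.4, 40.1 and 29.8 FPKM. For 7 epithelial markers the sum was 149 to 161, 192 to 220 and 217 to 222 FPKM, for 3 endothelial markers 8.38 to 11.0, 14.5 to 16.4 and 7.71 to 8.49 FPKM, and for 4 leukocyte markers, 3 of which were listed at 0 in all libraries, at most 0.945 FPKM. The endothelial sum was nearly all CDH5, with means of 9.38, 15.2 and 7.93 FPKM, while PECAM1 averaged at most 0.325 FPKM per group and VWF was near 0. The part of these markers in the results on FGF genes was not tested.

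Of the ligands above 0.478 FPKM in any library, FGF5 and FGF1 differed most between the groups, so the 250 bases before their first annotated start are shown, read 5′ to 3′ on the strand of the gene (RefSeq, GRCh38.p14). They lie at chr4:80266338-80266587 on the plus strand for FGF5 and at chr5:142698071-142698320 on the minus strand for FGF1. All letters are in lower case because neither holds a CArG box, the element bound by SRF, which would be in capitals.
FGF5: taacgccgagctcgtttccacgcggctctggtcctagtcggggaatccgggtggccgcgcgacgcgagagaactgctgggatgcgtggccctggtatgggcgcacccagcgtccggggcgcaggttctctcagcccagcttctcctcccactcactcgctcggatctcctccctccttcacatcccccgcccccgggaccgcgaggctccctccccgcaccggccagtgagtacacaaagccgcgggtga
FGF1: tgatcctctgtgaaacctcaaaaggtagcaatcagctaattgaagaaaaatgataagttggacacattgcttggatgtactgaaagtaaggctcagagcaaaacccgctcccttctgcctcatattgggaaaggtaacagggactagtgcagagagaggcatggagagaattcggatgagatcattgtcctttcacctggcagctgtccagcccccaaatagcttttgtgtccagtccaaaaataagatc
The shown stretch of FGF5 had a GC content of 68.8% and that of FGF1 of 44.8%. None of the 17 promoters listed for 8 members (250 bases before to 50 after a start) held a CArG box on either strand, compared with 1.29% of all 35116 promoters. No promoter of FGFR1 was among them, so FGFR1 was not searched. A box short of 1 outer base was found in 1 of the 17, upstream of FGFR4, compared with 12% of all promoters. Absence of these letters applies only to these windows.

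The 3′UTRs of all 9 members were also searched for the let-7 target site CTACCTC, the complement of the seed shown in capitals.
hsa-let-7a-5p: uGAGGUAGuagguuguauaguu
The site was in none of them, compared with 9.7% of 19061 3′UTRs, and with 22.5% of the 1684 that were close in length to the 4348 bases of FGF5 (3479 to 5434 bases). Only exact matches to these letters were searched, in the main transcript of each gene, so other forms of let-7 site were not looked for. MicroRNA levels were not analysed here.

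FGF5, a secreted ligand known for ending the growth phase of hair follicles, was the most abundant FGF in control cells. The FGF5 gene (ENSG00000138675; chromosome 4, 80266639 to 80336680, plus strand, GRCh38 with GENCODE annotation) has 3 exons in its main transcript. Its level was 17.9, 15.3 and 19.1 FPKM in the siC libraries, 5.63, 6.24 and 5.85 FPKM in siIGF2BP1, and 48.4, 46.8 and 47.7 FPKM in siSRF. The 3 groups did not overlap, with the siIGF2BP1 libraries lowest and the siSRF libraries highest. In RNA of whole cultures, fewer cells of a kind and less RNA per cell cannot be told apart. FGF5 was at 34.0% of the siC mean upon IGF2BP1 depletion (log2 fold change -1.54) and at 274% upon SRF depletion (log2 fold change 1.45). The siIGF2BP1 and siSRF libraries differed by -2.99 on the log2 scale. Between 259 and 2558 reads per library stood behind these values.

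FGF1, which binds all FGF receptors and lacks a classical secretion signal, had the largest called increase among the members upon SRF depletion. Its gene is ENSG00000113578 (chromosome 5, 142592178 to 142698070, minus strand). FGF1 was at 0.747, 0.809 and 1.07 FPKM in siC, at 0.371, 0.338 and 0.492 FPKM in siIGF2BP1 and at 4.89, 4.28 and 4.78 FPKM in siSRF. The groups were ordered as for FGF5, without overlap. In siSRF the level was 531% of siC, and the log2 fold change was 2.29 (SE 0.166, limma adjusted p = 0.000519). In siIGF2BP1 it was 45.7% of siC, and the log2 fold change of -0.96 (SE 0.281, 95% interval -1.64 to -0.28) did not pass the threshold of 0.01 (limma adjusted p = 0.0692), with 13 to 22 reads per siIGF2BP1 library and 26 to 41 per siC library. By limma-voom on recovered reads the same difference passed (adjusted p = 0.00383).

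FGF2, or basic FGF, a broadly acting mitogen that is also exported without a signal peptide, was the second most abundant ligand in siC. It is encoded by ENSG00000138685 (chromosome 4, 122826682 to 122898236, plus strand). Its level was 4.36, 4.08 and 5.04 FPKM in siC, 6.49, 5.67 and 5.61 FPKM in siIGF2BP1, and 6.83, 6.87 and 7.03 FPKM in siSRF. Both knockdowns lay above siC in every library, and FGF2 thus differed from FGF5 and FGF1 in the side on which the siIGF2BP1 libraries fell. FGF2 rose to 154% of siC upon SRF depletion (log2 fold change 0.61, SE 0.0934, limma adjusted p = 0.0055). In siIGF2BP1 it reached 132% (log2 fold change 0.39, SE 0.110, limma adjusted p = 0.0606, and 0.00455 by limma-voom on recovered reads). The siSRF call was lost when any library other than siC replicate 3 was left out (limma adjusted p of 0.0155 to 0.0273).

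FGF18 and FGF7, ligands best known from bone and from epithelial repair, were close to the limit of detection. FGF18 (ENSG00000156427, chromosome 5, 171419647 to 171457626, plus strand) had 0, 0 and 2 reads in the siC libraries, 0, 1 and 0 in siIGF2BP1 and 3, 8 and 7 in siSRF. It entered the siSRF fits only through the siSRF libraries, at 0.377 FPKM ± 0.144 (SD, n = 3), so it had to differ there and no p is given. Its log2 fold change of 1.78 (SE 0.555) ranged from 0.39 to 3.89 with the pseudocount and the test. FGF7 (ENSG00000140285, chromosome 15, 49423237 to 49488775, plus strand) had 1 read in each siC library and none in siIGF2BP1, where 0 reads allow a level of up to 0.0532 to 0.0618 FPKM per library, counting error only. Reads of FGF7 may be shared with its pseudogene copies, 8 of which are listed at 0 to 0.471 FPKM, so its level is uncertain.

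**Figure D1:**
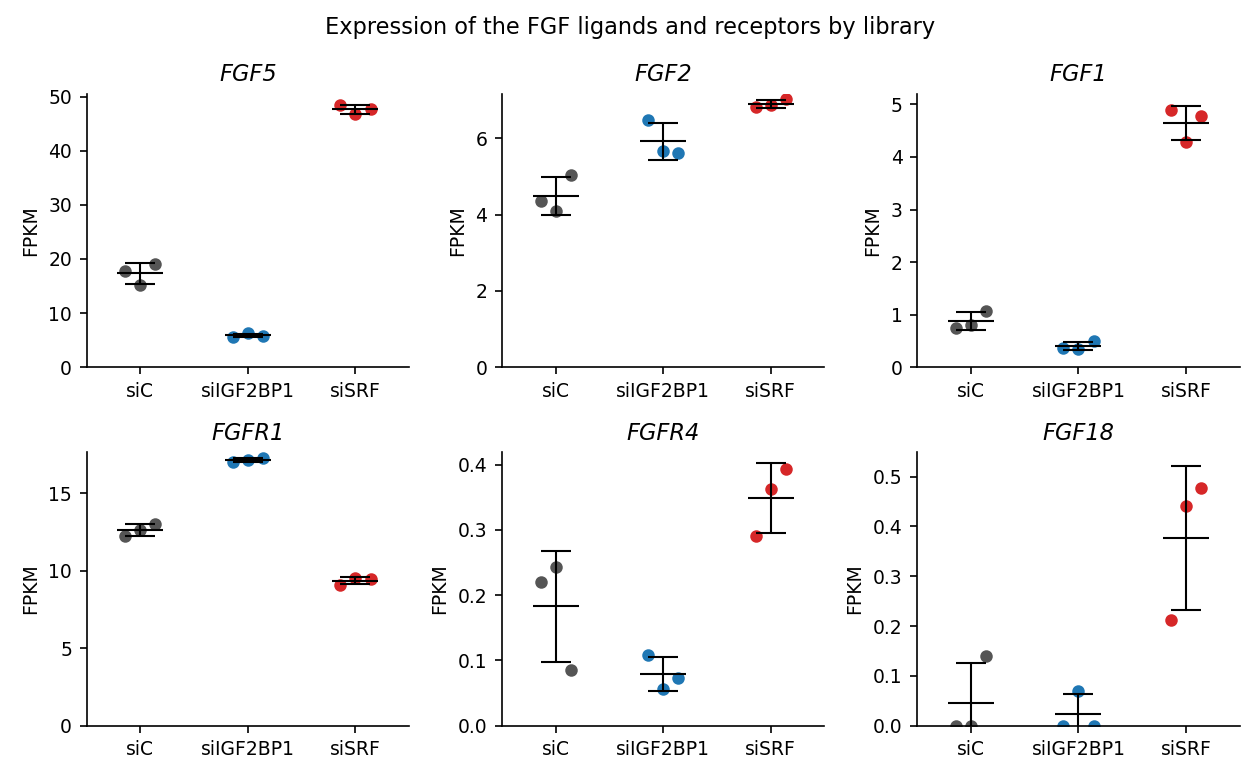
FPKM of the 6 members with enough reads to plot, for the 3 libraries each of siC, siIGF2BP1 and siSRF (points), with the mean (bar) and SD (error bars, cut off at 0), on linear axes that start at 0. FGF5 and FGF1 are lowest in siIGF2BP1 and highest in siSRF, FGF2 is lowest in siC, and FGFR1 is highest in siIGF2BP1 and lowest in siSRF.

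Among the receptors, FGFR1 was the only one above 0.393 FPKM in any library. FGFR1 is the receptor known to mediate mesenchymal FGF responses, and its gene is ENSG00000077782 (chromosome 8, 38400215 to 38468834, minus strand). Its level was 12.2, 12.6 and 13 FPKM in siC, 17.0, 17.1 and 17.2 FPKM in siIGF2BP1, and 9.11, 9.49 and 9.45 FPKM in siSRF. The groups did not overlap, and their order was opposite to that of FGF5 and FGF1. FGFR1 rose to 136% of siC upon IGF2BP1 depletion (log2 fold change 0.44, SE 0.0467, limma adjusted p = 0.00235) and fell to 74.0% upon SRF depletion (log2 fold change -0.43, SE 0.0512, limma adjusted p = 0.00237). Both changes were below 1.5-fold, and between 825 and 1855 reads per library were counted. Leaving out single libraries kept the log2 fold change between 0.42 and 0.46 in siIGF2BP1 and between -0.45 and -0.41 in siSRF, but the first call was lost without any library other than siC replicate 3 (limma adjusted p of 0.0109 to 0.0176) and the second without any of the 3 siSRF libraries (0.0116 to 0.0139).

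FGFR4 (ENSG00000160867, chromosome 5, 177086905 to 177098144, plus strand), the receptor that serves FGF19 in liver, was measured with 2 to 16 reads per library. It was at 0.220, 0.244 and 0.0859 FPKM in siC, 0.108, 0.0568 and 0.0733 FPKM in siIGF2BP1 and 0.290, 0.363 and 0.393 FPKM in siSRF. The siSRF libraries were the highest, and the siC and siIGF2BP1 libraries overlapped. IGF2BP1 depletion gave a log2 fold change of -0.62 with a 95% interval of -1.76 to 0.53. No p is given for it, because FGFR4 entered that fit through the siC libraries alone. SRF depletion gave a log2 fold change of 0.71 with an interval of -0.27 to 1.68 (limma adjusted p = 0.274), so a difference between siSRF and siC was not detectable at this depth. FGFR3 (ENSG00000068078, chromosome 4, 1793293 to 1808872, plus strand) had 1 read in 1 siC library and 1 in 1 siSRF library. FGFR2 (ENSG00000066468, chromosome 10, 121478332 to 121598458, minus strand) had no read in any of the 9 libraries, which allows at most 0.0434 to 0.0600 FPKM per library.

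The calls among the members are given beside the share of all genes called in the same direction. Upon IGF2BP1 depletion, of the 8 members other than FGF5, 4 could be tested, 1 was called higher (FGFR1) and 0 lower by limma (1 lower at an unadjusted p under 0.05, and 1 lower by limma-voom). Of all 22292 genes tested, 3.55% were called higher and 3.57% lower. Upon SRF depletion 5 members could be tested, and FGF1 and FGF2 were called higher and FGFR1 lower, while 6.85% and 5.34% of 21857 genes were called higher and lower. One of these 5 members, FGF18, passed the filter on low values only through the siSRF group. In the comparison of siIGF2BP1 with siC, FGFR4 passed it only through the siC group. With so few members in the fits no more is read from their shares.

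The knockdowns were also compared with each other directly, which leaves out the siC libraries that both comparisons share. FGF1 was at 8.61% of its siSRF level in siIGF2BP1 (log2 difference -3.26, SE 0.178, limma adjusted p = 7.33e-05), a difference close in size to the -2.99 of FGF5. FGFR1 was at 183% (log2 difference 0.87, SE 0.0417, limma adjusted p = 4.7e-05), the only receptor called. For FGF2 the log2 difference was -0.22 (95% interval -0.40 to -0.04, limma adjusted p = 0.0709), which did not pass 0.01. FGFR4 and FGF18 differed by -1.33 and -1.95 on the log2 scale, given without a p because both entered this fit through the siSRF libraries alone. Thus 1 of 5 tested members was called lower and 1 higher in siIGF2BP1 than in siSRF, where 11.2% and 8.82% of 22311 genes were called.

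**Figure D2:**
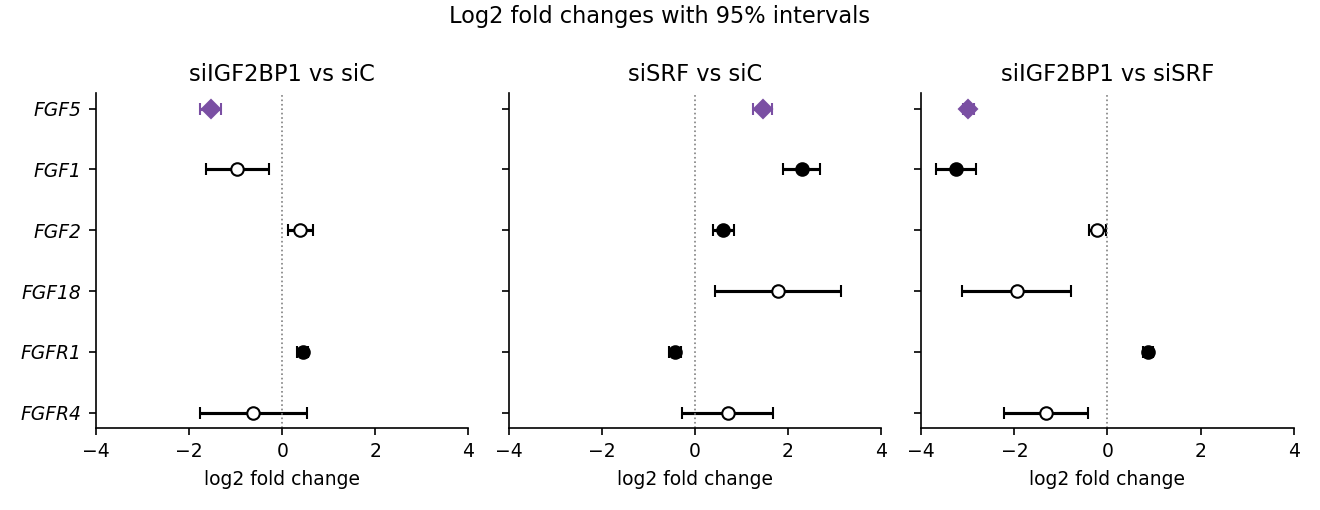
Log2 fold changes on the scale of log2(FPKM + 0.1), with 95% intervals, for each member in the fit, in siIGF2BP1 against siC, siSRF against siC, and siIGF2BP1 against siSRF. Filled circles passed the limma threshold, open circles did not, and the diamonds mark FGF5, which was not tested. The intervals drawn for FGF5 are no test either, since it was selected on its direction. Open circles of FGF18, and of FGFR4 in the panels with siIGF2BP1, are likewise no test. There these genes entered the fit only through the group where they were higher. FGFR1 lies at 0.44, -0.43 and 0.87, on the other side of 0 from FGF5 in each panel.

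Summing the FPKM of the members showed how the balance of ligands moved. The 5 ligands together reached 22.8 FPKM ± 2.59 in control cells, 12.3 FPKM ± 0.276 upon IGF2BP1 depletion and 59.6 FPKM ± 1.06 upon SRF depletion (SD, n = 3 each). FGF5 made up 76.2% ± 1.31 of this sum in siC, 48.2% ± 2.86 in siIGF2BP1 and 79.9% ± 0.387 in siSRF. FGF2 accounted for 19.7% ± 0.657, 48.3% ± 3.18 and 11.6% ± 0.243 in the same order, so that FGF2 and FGF5 were present in like amounts in siIGF2BP1. Among these 5 ligands FGF1 remained the third throughout, at 3.83% ± 0.519, 3.28% ± 0.738 and 7.80% ± 0.407. FGF4, which is not in this sum, averaged 0.791 FPKM in siIGF2BP1, above the 0.400 FPKM of FGF1.

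Leaving out FGF5, the ligands summed to 5.44 FPKM ± 0.732 in control cells, 6.34 FPKM ± 0.445 upon IGF2BP1 depletion and 11.9 FPKM ± 0.358 upon SRF depletion. In siIGF2BP1, 2 of 3 libraries, at 6.07 and 6.10 FPKM, lay within the siC range of 4.91 to 6.28 FPKM, whereas all siSRF libraries were above both. The receptor sum was 12.8 FPKM ± 0.298, 17.2 FPKM ± 0.0882 and 9.71 FPKM ± 0.247, of which FGFR1 made up 98.5%, 99.5% and 96.3%. The ratio of ligand to receptor FPKM was 1.78 ± 0.192 in siC, 0.711 ± 0.0196 in siIGF2BP1 and 6.14 ± 0.243 in siSRF. The gene length used for FGFR1 was 12698 bases, while its main transcript has 5697, and for FGF5 it was 5998 beside 5313. FGFR1 is thus set low beside FGF5, and the size of the ratios depends on these lengths. Since FGF5 dominates the sum, these ratios follow the values by which it was selected and were not tested.

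**Figure D3:**
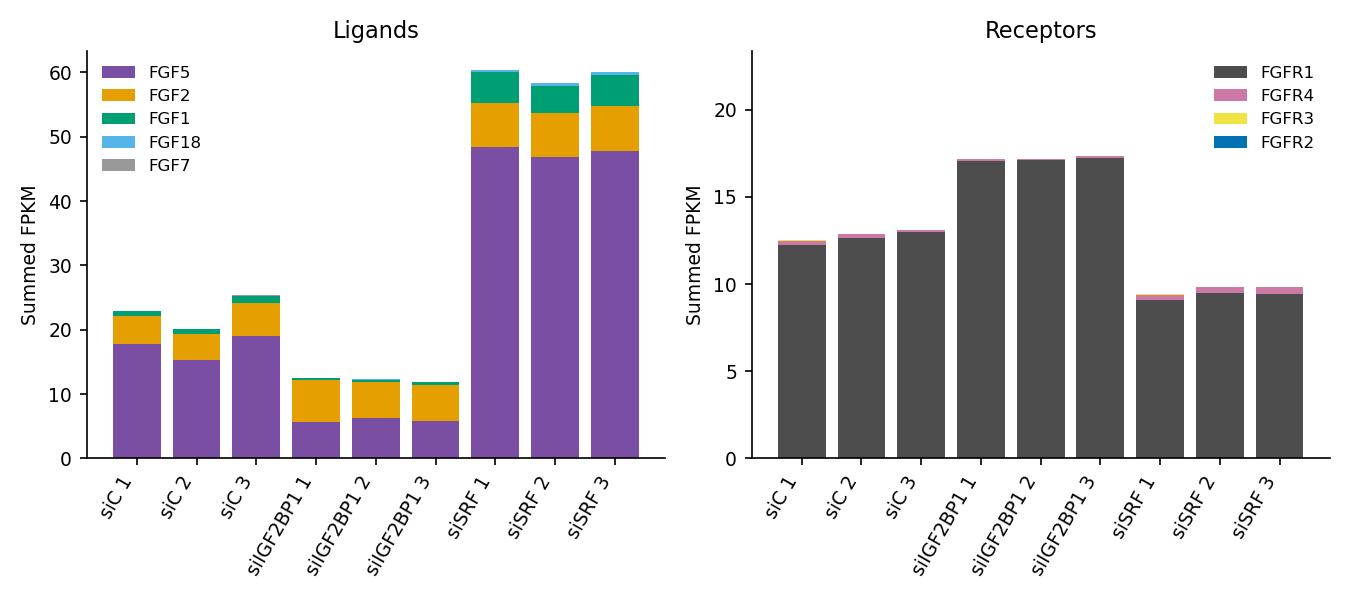
Stacked FPKM of the 5 ligands (left) and the 4 receptors (right) in each of the 9 libraries, on axes from 0. The ligand bars reach 20.2 to 25.3 FPKM in siC libraries, 11.9 to 12.5 FPKM with siIGF2BP1 and 58.4 to 60.3 FPKM with siSRF, and the receptor bars consist almost wholly of FGFR1.

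Of the 13 other secreted FGF genes, 9 had no read in any library, and FGF4, at 0.578 FPKM ± 0.279 in siC, was the only one abundant enough to be tested. It was not called in any comparison (log2 fold change 0.47 upon IGF2BP1 depletion, limma adjusted p = 0.522). Of the 4 intracellular FGF homologous factors, which do not signal through FGF receptors, FGF12 was tested, at 0.859 FPKM ± 0.158 in siC, and was not called.

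Of 21 listed co-receptors and binding partners of FGFs, 12 were tested upon SRF depletion, where 6 fell, 6 were not called and 0 rose by limma (0 were higher at an unadjusted p under 0.05, and 0 by limma-voom). Of all genes 5.34% were called lower and 6.85% higher. The list had a median log2 fold change of -0.88 compared with 0.01 over all genes tested. FGFRL1, a receptor-like protein without a kinase domain, fell from 4.18 FPKM ± 0.593 to 1.79 FPKM ± 0.218 (log2 fold change -1.18, limma adjusted p = 0.00301). The heparan sulphate proteoglycans SDC4 (log2 fold change -1.01, limma adjusted p = 0.000557) and SDC1 (-0.93, limma adjusted p = 0.000458) fell as well, as did GPC1, which averaged just under 1 FPKM and was chosen after its values were seen (-2.30, limma adjusted p = 0.00223). FLRT2, a membrane protein that binds FGF receptors, was among those not called (log2 fold change 0.29). Upon IGF2BP1 depletion 13 genes were tested and SDC1 was the only one called by limma, from 58.6 FPKM ± 4.26 to 37.6 FPKM ± 1.39 (log2 fold change -0.64, limma adjusted p = 0.0019), while the median of the list was 0.14 and 3.57% of all genes were called lower. At an unadjusted p under 0.05, 5 were lower and 2 higher, and by limma-voom 2 were called lower and 1 higher. SDC2 and FLRT3 passed the filter on low values only through siIGF2BP1, at means of 0.356 and 0.212 FPKM. Compared directly, 6 of 13 were higher in siIGF2BP1 than in siSRF and 0 were lower (1 at an unadjusted p under 0.05, and 0 by limma-voom), beside 8.82% and 11.2% of all genes. Among the 6 were GPC6, SDC3 and SDC4 with log2 differences of 1.25, 1.15 and 1.08. Leaving out any 1 library left 2 to 4 of these genes called lower in siSRF and 2 to 4 higher between the knockdowns, and SDC1 stayed called in siIGF2BP1 only when that library was siC replicate 1 or 2.

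Of 26 enzymes that make and edit heparan sulphate, which FGFs need for receptor binding, 14 were tested in each comparison. Upon IGF2BP1 depletion 2 rose and 1 fell by limma, beside 3.55% and 3.57% of all genes. At an unadjusted p under 0.05, 6 were higher and 2 lower, and by limma-voom 5 were called higher and 1 lower. The sulphotransferase NDST1 rose from 28.8 FPKM ± 1.28 to 53.0 FPKM ± 2.92 (log2 fold change 0.88, limma adjusted p = 0.000522) and the chain polymerase EXT1 rose by 0.68 on the log2 scale (limma adjusted p = 0.00162), while EXTL3, which starts the chain, fell to 3.04 FPKM ± 0.125 from 6.68 FPKM ± 0.297 (log2 fold change -1.11, limma adjusted p = 0.000678). Upon SRF depletion 1 rose and 1 fell, a share close to the 6.85% and 5.34% of all genes. EXT1 rose (log2 fold change 0.53, limma adjusted p = 0.00116) and EXT2, its partner in the polymerase, fell (-0.53, limma adjusted p = 0.00681). Between the knockdowns 2 genes were lower and 5 higher in siIGF2BP1, beside 11.2% and 8.82% of all genes, with EXTL3 at -1.17, the heparan sulphate degrading enzyme HPSE at 1.17 and EXT2 at 0.88. The EXT2 call against siC was lost unless the library left out was siC replicate 3. Between the knockdowns, leaving out any 1 siIGF2BP1 or siSRF library left 3 to 4 genes of the list called higher and 1 to 2 called lower.

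In the RAS-ERK cascade below the receptors, all 22 listed genes were expressed and tested. Upon IGF2BP1 depletion 4 fell and 0 rose by limma (3 were higher at an unadjusted p under 0.05, and 1 by limma-voom), beside 3.57% and 3.55% of all genes. Among those that fell were the ubiquitin ligase CBL (log2 fold change -0.69, limma adjusted p = 0.00584), MAP2K2 (-0.55, limma adjusted p = 0.00332) and, named after its values were seen, MAP2K1 (-0.49, limma adjusted p = 0.00385), the last 2 encoding the kinases that activate ERK. Upon SRF depletion 2 fell and 1 rose, which is near the 5.34% and 6.85% of all genes. MAPK3, which encodes ERK1, fell (log2 fold change -0.69, limma adjusted p = 0.00603), as did MAP2K2 (-0.67, limma adjusted p = 0.00179), and the adaptor CRK rose (0.46, limma adjusted p = 0.00894). The receptor adaptor FRS2 was at 3.90, 4.66 and 5.87 FPKM on average in siC, siIGF2BP1 and siSRF and was not called. Between the knockdowns 8 genes were lower in siIGF2BP1 and 0 higher (7 at an unadjusted p under 0.05, and 5 by limma-voom), beside 11.2% and 8.82% of all genes, with CBL, HRAS and PTPN11 at -0.59, -0.54 and -0.45. With any 1 library left out, 0 or 1 genes were called lower in siIGF2BP1, 0 to 2 genes in all in siSRF, and 2 to 8 between the knockdowns, fewest without siSRF replicate 1 or 2. The medians of the list were -0.05 and -0.03 in the 2 comparisons with siC.

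Of 21 genes that ERK is known to induce or that feed back on the pathway, all tested, 7 fell upon IGF2BP1 depletion and 14 were not called, compared with 3.57% of all genes called lower. By limma 0 rose (1 was higher at an unadjusted p under 0.05, and 1 by limma-voom), and the median log2 fold change of the list was -0.43 compared with 0.02 over all genes. Those not called included MYC (log2 fold change -0.02) and CCND1 (0.03), growth-promoting genes chosen here after their values were seen. The ERK phosphatase DUSP5 fell from 50.7 FPKM ± 1.85 to 17.5 FPKM ± 1.78 (log2 fold change -1.53, limma adjusted p = 0.000237). The receptor signalling inhibitor SPRY2 fell from 43.8 FPKM ± 0.744 to 16.9 FPKM ± 0.455 (log2 fold change -1.37, limma adjusted p = 0.000101), and the transcription factor ETV4 from 9.23 FPKM ± 0.253 to 4.02 FPKM ± 0.719 (log2 fold change -1.20, limma adjusted p = 0.00311). DUSP5, SPRY2 and ETV4 had the largest changes among the called genes of at least 1 FPKM on average, and 3 to 5 genes of the list were called with any 1 library left out.

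Upon SRF depletion, 4 of the 21 genes rose and 0 fell by limma (3 were lower at an unadjusted p under 0.05, and 2 by limma-voom), compared with 6.85% and 5.34% of all genes, and the median was 0.05. SPRED1, an inhibitor of RAS signalling, rose from 23.8 FPKM ± 1.18 to 55.9 FPKM ± 1.23 (log2 fold change 1.23, limma adjusted p = 9.6e-05). PHLDA1 (log2 fold change 0.58, limma adjusted p = 0.00176) and MYC (0.38, limma adjusted p = 0.00158) rose too, and so did SPRY2, named after its values were seen (0.32, limma adjusted p = 0.00153). DUSP5 was at 51.6 FPKM ± 1.43 in siSRF, with a log2 fold change of 0.03 (SE 0.0437, limma adjusted p = 0.735), and ETV4 at 9.30 FPKM ± 1.28. Without siSRF replicate 2 only 1 gene was called, and without siSRF replicate 1, 2 genes. In the direct comparison, 10 of the 21 were lower in siIGF2BP1 than in siSRF and 0 higher (1 at an unadjusted p under 0.05, and 1 by limma-voom), where 11.2% and 8.82% of all genes were called. Among those of at least 1 FPKM on average the largest differences were those of SPRY2 (log2 difference -1.69, limma adjusted p = 8.39e-06), DUSP5 (-1.55, limma adjusted p = 4.84e-05) and ETV4 (-1.20, limma adjusted p = 0.00231). EGR1, an early response gene below that level, differed by -1.60 (limma adjusted p = 0.00596) and was chosen after its values were seen.

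**Figure D4:**
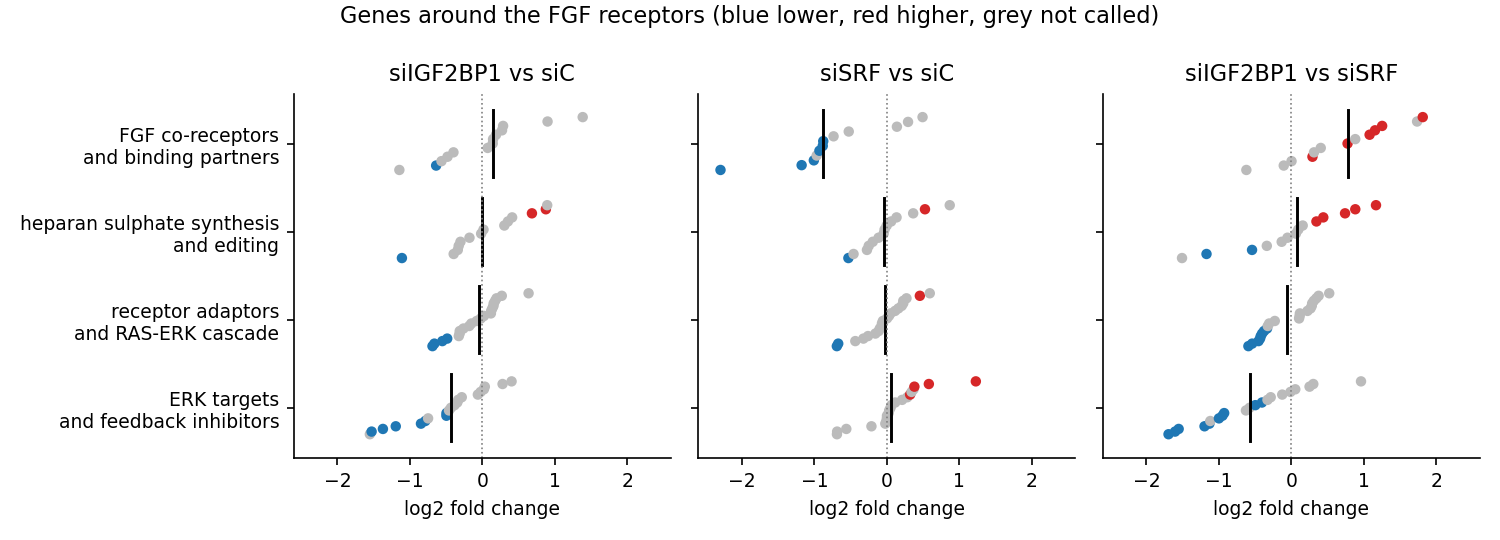
Log2 fold changes of the tested genes of 4 lists around the FGF receptors, in siIGF2BP1 against siC, siSRF against siC and siIGF2BP1 against siSRF. Each point is a gene, blue where called lower, red where called higher and grey where not called, and the black bar is the median of the list. The ERK target list has its median at -0.43 in the first panel and 0.05 in the second, and the co-receptor list at 0.14 and -0.88.

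To find genes with a course like that of the members, the log2(FPKM + 0.1) values of 10379 protein-coding genes of at least 1 FPKM were set to their siC mean and compared over the 9 libraries by the root mean square difference. The closest to FGF5 were MAFF, a small MAF transcription factor (0.218), the neutrophil-attracting chemokine CXCL5 (0.230) and the cytokine IL24 (0.241), and no gene came within 0.2. MAFF had means of 4.84 FPKM ± 0.411, 1.92 FPKM ± 0.132 and 11.3 FPKM ± 0.354 in siC, siIGF2BP1 and siSRF, CXCL5 at 90.1 FPKM ± 9.51, 39.9 FPKM ± 0.166 and 269 FPKM ± 6.23, and IL24 at 6.31 FPKM ± 0.648, 2.42 FPKM ± 0.533 and 18.2 FPKM ± 1.31. For FGF2, whose course was shallower, the closest were CSNK1G3 (0.0666), STAG2 (0.0719) and ZNF595 (0.0807), among 530 genes within 0.2. For FGFR1 they were SH3D19 (0.0501), DGCR2 (0.0578) and DLG5 (0.0717), among 453 genes within 0.2. These distances are descriptions over libraries that share the 3 siC libraries as their zero.

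**Figure D5:**
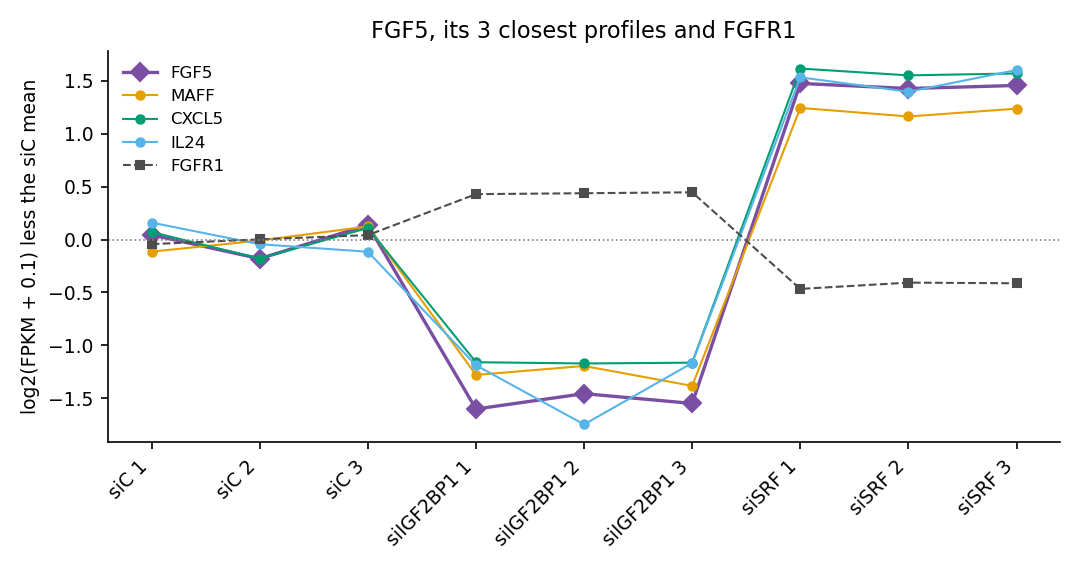
Difference of log2(FPKM + 0.1) from the siC mean in each of the 9 libraries for FGF5, its 3 closest genes and FGFR1; lines only join the libraries of one gene. FGF5, MAFF, CXCL5 and IL24 lie below 0 in all siIGF2BP1 libraries and above it in all siSRF libraries, and FGFR1 the other way round.

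Some members share ground with other genes, so reads there could belong to either gene. For overlaps on opposite strands this depends on the strand setting used in counting, which is not given in the sources used here. Exons of FGFR1 overlap those of LETM2 on the opposite strand, which averaged 3.26 FPKM ± 0.361, 2.47 FPKM ± 0.275 and 5.13 FPKM ± 0.494 in siC, siIGF2BP1 and siSRF, the reverse order of FGFR1. Exons of FGF2 overlap those of NUDT6 on the opposite strand, at 1.22 FPKM ± 0.131, 1.14 FPKM ± 0.236 and 0.836 FPKM ± 0.262. Exons of FGF5 overlap those of C4orf22 on the same strand, at 0.357 FPKM ± 0.0320, 0.136 FPKM ± 0.0502 and 0.357 FPKM ± 0.0474, well below FGF5. How reads in these overlaps were assigned was not tested.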

How the data were processed

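Total RNA of ES-2 cells was depleted of ribosomal RNA and sequenced from a directional library kit, in 3 libraries each of siC, siIGF2BP1 and siSRF. The authors clipped reads with Cutadapt 1.14, aligned them with HISAT2 2.1.0 to GRCh38 (hg38), counted them per gene with featureCounts 1.5.3 and normalised by TMM with edgeR 3.18.1 (versions from the submitters' processing notes). They deposited FPKM values per library in 2 tables, whose siC values were identical. Fold changes, p-values and FDRs in these tables are the authors' own comparisons and were not used. Reads were recovered for 100% of the values above 0 (within 0.01 of a whole read).

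Log2(FPKM + 0.1) was compared with limma 3.58.1 (trend) in R 4.3.3, within the 2 groups of each comparison, keeping genes whose average over these 6 libraries reached 0.1 FPKM. Fold changes of low genes are understated on this scale. P-values were adjusted over all genes kept by Benjamini-Hochberg, and genes were called at 0.01. Of 1588, 2665 and 4460 called genes, 73, 88 and 183 had under 10 reads per library on average, and no called member did. The scripts were tested on simulated data. The alternatives were other pseudocounts, filters, scaling and threshold, limma-voom on recovered reads, all 9 libraries in one fit, a replicate block and leaving out each library. For the gene lists they were added after the data were seen.

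The members, gene lists and tests were chosen with earlier results of these data known. All 9 members were named, with up to 3 called genes per list and comparison of at least 1 FPKM with the largest change, or the highest genes of a list with fewer, and the 3 closest profiles. 1 gene that this rule names is not reported here. Gene positions are from GENCODE v44. No protein sequences were used here.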

Additional observations from a re-analysis of the deposited data

How the results depend on the processing

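The direction of all member fold changes held under all alternatives run (232 values), and 209 stayed on their side of the threshold or moved by less than the replicate SD. For FGF5 a pseudocount of 1 moved the log2 fold change to -1.41 against siC and the log2 difference between the knockdowns to -2.82. In the comparison of siIGF2BP1 with siC, 3 members were called by limma-voom on recovered reads, 0 with the replicate block (2 higher and 1 lower at an unadjusted p under 0.05), and 0 to 1 with a library left out, against 1 as reported. In siSRF against siC 1 was called with the replicate block and 1 to 3 with a library left out, against 3. Between the knockdowns 4 were called by limma-voom on recovered reads and 4 at an adjusted p of at most 0.05, against 2, and 2 with any library left out. The added ones are FGF18 and FGFR4, which entered that fit through siSRF alone.

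FGFR1 had limma adjusted p-values with the replicate block of 0.0259, 0.0175 and 0.00291 in the 3 comparisons, FGF1 0.129, 0.00917 and 0.00264, and FGF2 0.133, 0.0229 and 0.147. Libraries with the same number showed no shared deviation from the group averages (correlation across genes -0.0668 to 0.0177). Whether they were cultured or prepared together is not given by the labels and cannot be decided from these correlations. Of the ERK targets 2 were with the replicate block called lower in siIGF2BP1, 1 higher in siSRF and 6 lower between the knockdowns, and by limma-voom 10, 5 and 14 in the same order. With the replicate block, 0 genes of the heparan sulphate and RAS-ERK cascade lists were called against siC in either knockdown. Between the knockdowns, 1 heparan sulphate gene was lower in siIGF2BP1 and 2 higher, and 1 cascade gene was lower. Of the co-receptors, 0 were called in siIGF2BP1, 2 lower in siSRF and 2 higher between the knockdowns. At 2 to 16 reads per library for FGFR4 and fewer for FGF18, only large differences are detectable.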

Other observations

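The genes around the ligand genes were also read from the tables, and those named here were chosen after their values were seen. ANTXR2, which encodes an anthrax toxin receptor that binds collagen, lies 141185 bases from FGF5 on the opposite strand. It was measured at 6.71, 6.31 and 6.07 FPKM in siC, 3.21, 3.88 and 4 FPKM in siIGF2BP1 and 8.67, 9.81 and 10.1 FPKM in siSRF, in the order of FGF5 and without overlap. It fell upon IGF2BP1 depletion (log2 fold change -0.77, limma adjusted p = 0.00577) and rose upon SRF depletion (0.57, limma adjusted p = 0.00433). PRDM8, which lies between ANTXR2 and FGF5 at 62310 bases from FGF5, was at 4.03 FPKM ± 0.831, 3.46 FPKM ± 0.773 and 6.13 FPKM ± 0.524 and was not called. Of the 7 protein-coding genes within 1000000 bases of FGF5, 3 were tested, and ANTXR2 was the only one called. With so few genes this cannot be set apart from the 3.57% of all genes called lower in siIGF2BP1 and the 6.85% called higher in siSRF. A link between ANTXR2 and FGF5 was not tested.

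Around FGF1, 12 of 14 protein-coding genes were tested in each comparison with siC, and 2 were lower and 1 higher in siIGF2BP1, and 1 was higher in siSRF, numbers too small to set apart from the 3.57%, 3.55% and 6.85% of all genes called. One of those lower in siIGF2BP1 was SPRY4, a feedback inhibitor of the FGF pathway at 265723 bases from FGF1, which went from 7.54 FPKM ± 1.07 to 4.30 FPKM ± 0.314 (log2 fold change -0.79, limma adjusted p = 0.00859). SPRY1 lies 498559 bases from FGF2 and was not called (log2 fold change -0.28, limma adjusted p = 0.439). Around FGF2, 7 of 10 were tested, of which 1 was higher in siIGF2BP1, again too few to set apart from the 3.55% of all genes.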
